A study of Mus musculus with 12 samples.

Results

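The genes described here encode the enzymes of cholesterol and fatty acid synthesis, together with the proteins that control them, in tumor-infiltrating myeloid-derived suppressor cells (MDSCs). They were taken by symbol from a list of 35 genes that covers the mevalonate arm, the sterol arm, the sterol regulatory element-binding protein (SREBP) control genes, fatty acid synthesis, the fatty acid desaturases and the elongases. All 35 were found among the 24346 gene symbols of the tables. RNA-seq had been run on 12 libraries in 6 groups of 2: monocytic MDSCs (M-MDSCs) and polymorphonuclear MDSCs (PMN-MDSCs), each from mice given vehicle, MS-275 or CXD101. Both compounds inhibit histone deacetylases (HDACs) 1 to 3. The hosts were wild-type female C57BL/6J mice of 6 to 8 weeks that carried tumors of Hepa 1-6, a mouse hepatoma cell line placed in the liver. Mice entered the experiment only if MDSCs exceeded 20% in blood. Vehicle (DMSO and PEG300 in PBS) or 5 mg/kg of an inhibitor in the same vehicle was injected intraperitoneally every day for 10 days from day 10, and tumors were taken on day 21. The gates were CD11b+, Ly-6C high and Ly-6G negative for M-MDSCs, and CD11b+, Ly-6C intermediate and Ly-6G positive for PMN-MDSCs. Every comparison was made within tumor-bearing mice. The study describes the M-MDSC libraries as biological replicates. For the PMN-MDSC libraries no source says whether they came from separate mice, so their p-values measure the spread between these libraries, which may be technical.

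Cholesterol is built from acetyl-CoA through mevalonate, farnesyl diphosphate, squalene and lanosterol, and fatty acids from acetyl-CoA through malonyl-CoA. SREBPs are membrane-bound transcription factors that switch on both sets of genes when they reach the nucleus, which depends on the escort protein SCAP and is held back by the INSIG proteins when sterols are plentiful. Stearoyl-CoA desaturases place the first double bond in saturated fatty acids, and in myeloid cells the balance of saturated and unsaturated lipids is known to bear on membrane properties and inflammatory signalling.

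Values were FPKM, counts of sequenced fragments scaled to the length of the transcript and to sequencing depth. The spacing of the lowest values gave an approximate effective depth of 8480000 to 10700000 reads for the M-MDSC libraries and 6900000 to 8080000 for the PMN-MDSC libraries. This is the divisor that the FPKM values imply. It equals the sequenced depth only if no other scaling between libraries was applied, which is not stated. The correlation between the duplicates of a group was 0.988 to 0.991 across genes. The marker genes followed the gates in part. Ly6c2 was at 1360 and 1306 FPKM in vehicle M-MDSCs against 511 and 455 in vehicle PMN-MDSCs, where it reached 1418 to 1677 under the inhibitors, and Cxcr2 was at 2.81 and 3.11 against 80.8 and 109, but Csf1r, another monocytic marker, was no lower in vehicle PMN-MDSCs (160 and 145) than in vehicle M-MDSCs (123 in both). Of 8 hepatocyte and tumor markers, Ttr, Fabp1, Apoc3 and Serpina1a were at 0 in all 12 libraries, Alb reached 0.0528 FPKM, and the summed level of the list was 1.04 to 3.39 FPKM. The 8 lymphocyte and NK markers summed to 0.225 to 3.42 FPKM and the 5 erythroid markers to 0 to 0.948 FPKM. Other lists moved with treatment. S100a8 and S100a9, neutrophil transcripts, held 10.2% to 13.7% of all FPKM in vehicle PMN-MDSCs, 27.3% to 29.7% under MS-275 and 28.7% to 30.9% under CXD101, and in M-MDSCs 1.78% to 1.95%, 3.69% to 4.28% and 3.57% to 3.69%. In M-MDSCs Cxcr2 was at 20.8 and 19.7 FPKM under MS-275 and 8.005 and 7.75 under CXD101, above the vehicle libraries, and Csf3r, another neutrophil marker, was at 8.75 and 10.5 under vehicle, 24.3 and 24.9 under MS-275, and 21.02 and 20.6 under CXD101. Of the 6 polymorphonuclear markers, 4 were higher and 1 lower in both libraries under each inhibitor in M-MDSCs. The 7 eosinophil markers found in the tables summed to 152 to 185 FPKM in vehicle M-MDSCs and to 367 to 402 under the inhibitors. The 8 macrophage markers summed to 150 to 154 FPKM in vehicle M-MDSCs, 78.8 to 84.2 under MS-275 and 124 to 142 under CXD101, and in PMN-MDSCs to 186 to 196, 132 to 145 and 114 to 127. The list moved both ways, with 3 markers above and 5 below vehicle in both M-MDSC libraries under each inhibitor: Mrc1 was at 79.9 and 81.3 FPKM under vehicle and 16.4 and 13.5 under MS-275, and Adgre1 at 38.9 and 41.5 and then 58.4 and 53.9. The same count in PMN-MDSCs was 2 above and 5 below under MS-275, and 2 and 6 under CXD101. Mrc1 was there at 50.6 and 47.99 FPKM under vehicle, 3.32 and 2.96 under MS-275, and 20.1 and 23.7 under CXD101. Apoe was at 13.8 and 16.4 FPKM, 45.2 and 51.1, and 18.6 and 25.5. Of the 6 monocytic markers, 3 were above and 2 below vehicle there under MS-275, and 2 and 3 under CXD101. Csf1r was among the lower, at 59.9 and 64.1 FPKM under MS-275 and 72.4 and 71.4 under CXD101. The 8 proliferation markers summed to 958 to 1038 FPKM in vehicle M-MDSCs, 853 to 862 under MS-275 and 937 to 998 under CXD101. In both M-MDSC libraries 6 of them were below and 2 above vehicle under MS-275, and 3 and 2 under CXD101. Ccnb1 was at 85.8 and 80.1 FPKM under vehicle and 43.3 and 41.8 under MS-275. In PMN-MDSCs the list summed to 379 to 420 FPKM under vehicle, 379 to 394 under MS-275 and 352 to 354 under CXD101. The part of these lists in the results below was not tested. In sorted bulk samples, fewer cells of a type and less RNA per cell cannot be told apart.

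5 of the 34 testable genes, Scd1, Scd2, Fads2, Insig1 and Lss, were called lower in all 4 comparisons of an inhibitor with vehicle. Of the 10648 genes tested in both cell types, 1.5% were. These comparisons are not 4 independent repeats, because the 2 of a cell type share their vehicle libraries. In PMN-MDSCs Scd1 could only be tested because it was high under vehicle, so its calls there are a description. RefSeq promoter entries on GRCm38.p6 were held for 28 of the 35 genes, among them Insig1, Lss and Fads2. No entry was held for Fdps, Fdft1, Sqle, Stard4, Scd1, Scd2 and Fads1. The 250 bases before the RefSeq start of these 3 genes are printed because they belong to the genes called most often, and that of Hmgcs1, the HMG-CoA synthase gene, because it was the only one of the 28 with the searched sterol element; Hmgcs1 was picked after the matches were seen. Capitals mark matches, on either strand, to the sterol regulatory element TCACNCCAC, the NF-Y box CCAAT and the Sp1 box GGGCGG.

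Insig1, chr5:28071162-28071411, plus strand: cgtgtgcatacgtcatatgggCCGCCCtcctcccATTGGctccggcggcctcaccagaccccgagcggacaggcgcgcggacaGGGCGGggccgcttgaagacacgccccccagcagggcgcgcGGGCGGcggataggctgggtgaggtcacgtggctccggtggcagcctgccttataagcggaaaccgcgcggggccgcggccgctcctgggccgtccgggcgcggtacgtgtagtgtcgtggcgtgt

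Lss, chr10:76531355-76531604, plus strand: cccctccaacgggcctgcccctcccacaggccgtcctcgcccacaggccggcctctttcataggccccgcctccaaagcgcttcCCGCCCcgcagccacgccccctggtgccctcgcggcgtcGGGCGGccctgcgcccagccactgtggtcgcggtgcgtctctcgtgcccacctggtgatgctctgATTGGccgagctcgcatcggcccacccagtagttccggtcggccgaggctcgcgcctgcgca

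Fads2, chr19:10101504-10101753, minus strand: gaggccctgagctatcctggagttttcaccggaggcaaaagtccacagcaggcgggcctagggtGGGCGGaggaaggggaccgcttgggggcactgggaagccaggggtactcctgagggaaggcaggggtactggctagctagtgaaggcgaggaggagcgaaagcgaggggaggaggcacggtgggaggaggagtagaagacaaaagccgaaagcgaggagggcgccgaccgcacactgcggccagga

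Hmgcs1, chr13:119690101-119690350, plus strand: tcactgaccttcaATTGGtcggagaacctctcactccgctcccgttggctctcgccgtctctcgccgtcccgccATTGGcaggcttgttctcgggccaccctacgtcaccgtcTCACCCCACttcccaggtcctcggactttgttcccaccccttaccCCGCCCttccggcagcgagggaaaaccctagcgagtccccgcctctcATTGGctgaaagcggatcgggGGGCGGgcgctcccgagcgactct

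No matches overlapped in these sequences. GENCODE vM21, used for coordinates elsewhere, starts 3 of these genes further upstream, so that 243 bases of the Fads2 window, 49 of the Insig1 window and 17 of the Lss window lie inside its gene models, and positions relative to the start hold for RefSeq only. The sterol element was found in 1 of the 28 genes (3.57%) and in 1.22% of the 27025 gene symbols with a promoter entry. CCAAT was found in 22 of the 28 (78.6%) against 37.5% of all symbols, and GGGCGG in 23 of the 28 (82.1%) against 35.4%. The 27025 symbols were not limited to expressed genes, so these shares are not matched for expression. Of the 24346 gene symbols with FPKM values, 16434 were above 0 in any library, while all 35 genes reached 1 FPKM. A match is a description of letters, and a missing match says only that these letters were not in this window. Hmgcs1, with the sterol element at bases 137 to 129 before its RefSeq start, was called in none of the 4 comparisons. Its treated libraries all lay below vehicle, but the changes stayed under the 1.5-fold limit of a call. Fads2, with no CCAAT and 1 GGGCGG in a window mostly inside the GENCODE gene model, was called in all 4. Whether the letters go with the calls was not tested.

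**Figure D1:**
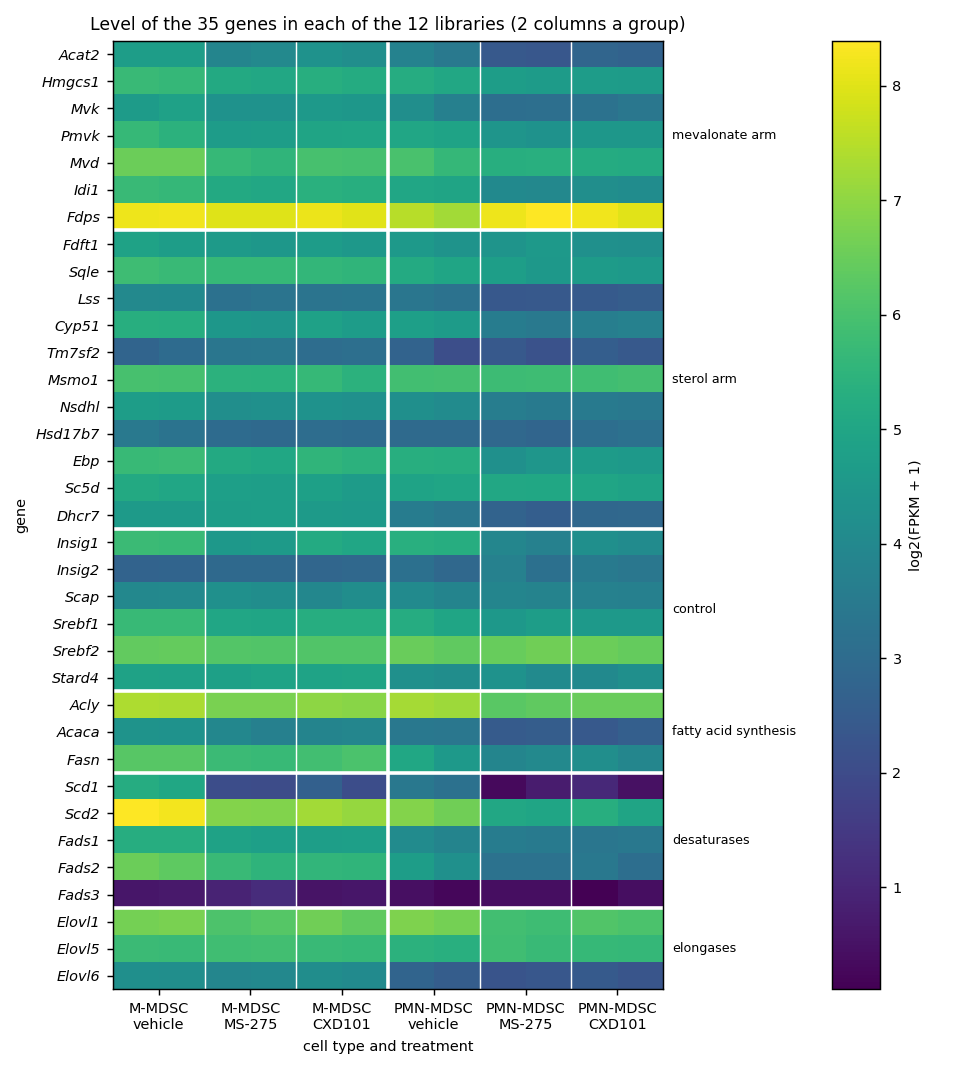
Heat map of log2(FPKM + 1) for the 35 genes (rows, by role) in the 12 libraries (columns, 2 for each combination of cell type and treatment). Fdps and Scd2 reached the highest levels, Fads3 stayed near the bottom of the scale in every library, and the Scd1 row darkens under both inhibitors in both cell types.

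The question asked of each comparison with vehicle was which of these genes changed when HDAC1 to 3 were inhibited in the tumor-bearing host. A gene was called at an adjusted p under 0.05 with a fold change above 1.5, from limma on log2(FPKM + 1) with Benjamini-Hochberg adjustment over all genes tested. Of the 35 genes, 34 passed the expression filter. Fads3, a desaturase family member, did not, at 0.0761 to 1.21 FPKM. The fitted changes understate those of genes with low values, because 1 FPKM is added before the log. Where groups are said not to overlap, this only describes groups of 2 libraries. The share of all genes that separate in the same way was not counted.

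In M-MDSCs, MS-275 lowered 12 of the 34 genes and raised 0, where 7.32% of all 11078 genes tested were called lower and 10.1% higher. CXD101 lowered 5 and raised 0, where 3% of all genes were called lower and 5.14% higher. By adjusted p alone, 27 genes were lower under MS-275 (27.3% of all genes) and 23 under CXD101 (12.2%). The median log2 fold change of the 34 genes was -0.51 under MS-275, where that of all genes tested was -0.06, and -0.34 under CXD101, where it was -0.02.

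In PMN-MDSCs, MS-275 lowered 15 of the 34 genes and raised 1, Fdps, where 14.2% of all 11184 genes tested were called lower and 14.6% higher. CXD101 lowered 17 and raised 1, again Fdps, where 9.54% were called lower and 11.9% higher. Both counts of lower genes include Scd1, which could only be tested there because it was high under vehicle. By adjusted p alone, 22 were lower under MS-275 (28.5% of all genes) and 22 under CXD101 (23.9%). Median log2 fold changes were -0.54 and -0.59, where those of all genes were -0.03 for both. The FPKM sum itself rose in PMN-MDSCs, from 656932 to 674361 under vehicle to 836748 to 860841 under the inhibitors. S100a8 averaged 44405 FPKM there under vehicle, 103703 under MS-275 and 110642 under CXD101. S100a9 averaged 35180, 138729 and 142312 FPKM. The counts of called genes depend on the scaling. With every library brought to the same FPKM sum, 23 genes were lower and 0 higher under MS-275, where 31.2% of all genes were lower and 8.01% higher, and 22 lower and 0 higher under CXD101, where 27.7% were lower and 6.39% higher. With S100a8 and S100a9 removed and the remaining genes divided by the share they kept, 13 were lower and 3 higher under MS-275, where 7.09% of all genes were lower and 26% higher, and 6 lower and 3 higher under CXD101, where 3.99% were lower and 24.2% higher. These scalings moved the median of all genes to -0.35 and -0.34, and to 0.25 and 0.27. Measured from those medians, the median of the 34 genes was -0.50 to -0.57 under the 2 scalings and -0.51 and -0.56 as deposited. The 2 comparisons of a cell type share their vehicle libraries, so the agreement of the lists under MS-275 and CXD101 is no independent repeat.

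**Figure D2:**
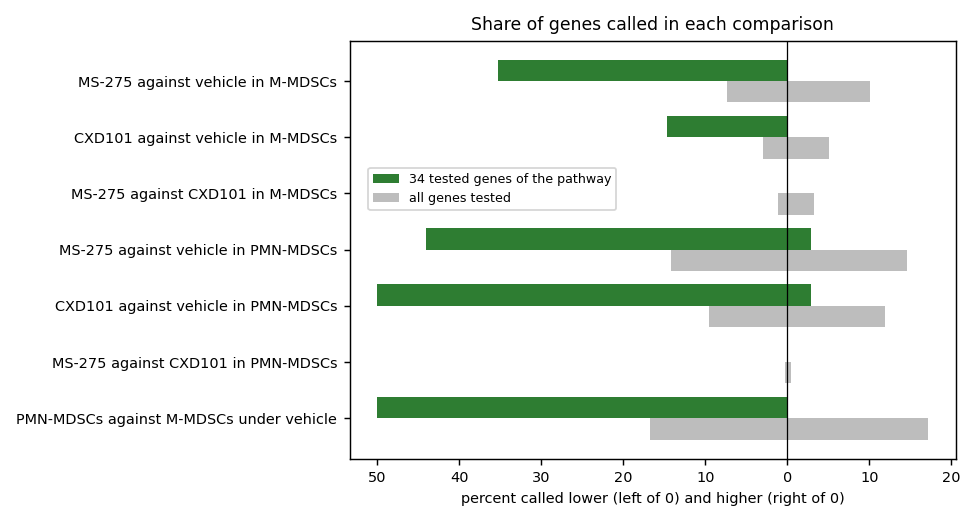
Percent of the 34 tested genes (green) and of all genes tested (grey) called lower, left of 0, and higher, right of 0, in 7 comparisons. In the 4 comparisons with vehicle the green bars on the left reach 14.7% to 50% and are longer than the grey ones, and no green bar appears for MS-275 against CXD101.

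Among the desaturases, Scd1 showed the largest fitted decrease of the 34 genes in all 4 comparisons with vehicle. Scd1 encodes the stearoyl-CoA desaturase that makes oleate and palmitoleate. In M-MDSCs it was at 36.4 and 31.96 FPKM under vehicle, 3.20 and 3.08 under MS-275, and 5.24 and 3.17 under CXD101. In PMN-MDSCs it was at 9.73 and 8.205 FPKM under vehicle, 0.254 and 0.669 under MS-275, and 1.08 and 0.387 under CXD101. No treated library overlapped a vehicle library of its cell type. In M-MDSCs the log2 change was -3.09 ± 0.17 (SE, adjusted p = 7.66e-06) under MS-275 and -2.78 ± 0.17 (adjusted p = 4.63e-05) under CXD101. In PMN-MDSCs it was -2.78 ± 0.23 (adjusted p = 6.58e-05) and -2.55 ± 0.23 (adjusted p = 0.00016), and there the added 1 FPKM is larger than most of the treated values. In PMN-MDSCs Scd1 also passed the expression filter only through its vehicle libraries, so its calls there are a description. With no filter the changes were -2.78 and -2.55 (limma adjusted p = 0.00102 and 0.00205). The vehicle mean was 19.4 times the MS-275 mean and 12.2 times the CXD101 mean in PMN-MDSCs as plain FPKM ratios, but the treated libraries held only about 8 to 41 Scd1 reads, so these ratios are imprecise. Of Scd1, 4.56% of the 50-base words in its transcripts also occur in transcripts of other genes, Scd2, Scd3 and Scd4 among them, and how such reads were assigned is not stated.

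Scd2, the neighbouring stearoyl-CoA desaturase gene on chromosome 19, was the most abundant desaturase. Its FPKM in M-MDSCs was 335 and 301 under vehicle, 114 and 112 under MS-275, and 149 and 134 under CXD101. The PMN-MDSC libraries held 116 and 95.9 under vehicle, 32.9 and 30.3 under MS-275, and 38.8 and 29.7 under CXD101. Again every treated library lay below both vehicle libraries of its cell type. The changes were -1.48 ± 0.07 and -1.16 ± 0.07 in M-MDSCs (limma adjusted p = 4.49e-06 and 5.04e-05) and -1.71 ± 0.14 and -1.61 ± 0.14 in PMN-MDSCs (adjusted p = 5.4e-05 and 0.000115). Scd1 lies at chr19:44394455-44407879 on the minus strand and Scd2 at chr19:44293674-44306864 on the plus strand of mm10 (GENCODE vM21).

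Fads2, the delta-6 desaturase of polyunsaturated fatty acid synthesis, whose promoter is printed above, was at 91.6 and 79.5 FPKM in vehicle M-MDSCs, 51.6 and 43.7 under MS-275, and 46.1 and 45.2 under CXD101. In PMN-MDSCs the values were 25.5 and 18.1, 8.41 and 8.45, and 9.65 and 7.56. The groups did not overlap with vehicle, and the 2 inhibitors gave nearly the same levels. Log2 changes were -0.83 ± 0.09 and -0.89 ± 0.09 in M-MDSCs (limma adjusted p = 0.000248 and 0.000567) and -1.25 ± 0.17 and -1.23 ± 0.17 in PMN-MDSCs (adjusted p = 0.000607 and 0.000931). Fads1, the delta-5 desaturase next to it, stayed within the fold limit in each comparison with vehicle, with log2 changes of -0.42 to -0.56 and limma adjusted p of 0.00117 to 0.0149. It was at 37.5 FPKM in both vehicle M-MDSC libraries, 28.4 and 26.6 under MS-275, and 25.6 and 26.5 under CXD101, and at 16.1 and 13.3, 11.1 and 10.2, and 9.35 and 9.81 in PMN-MDSCs.

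**Figure D3:**
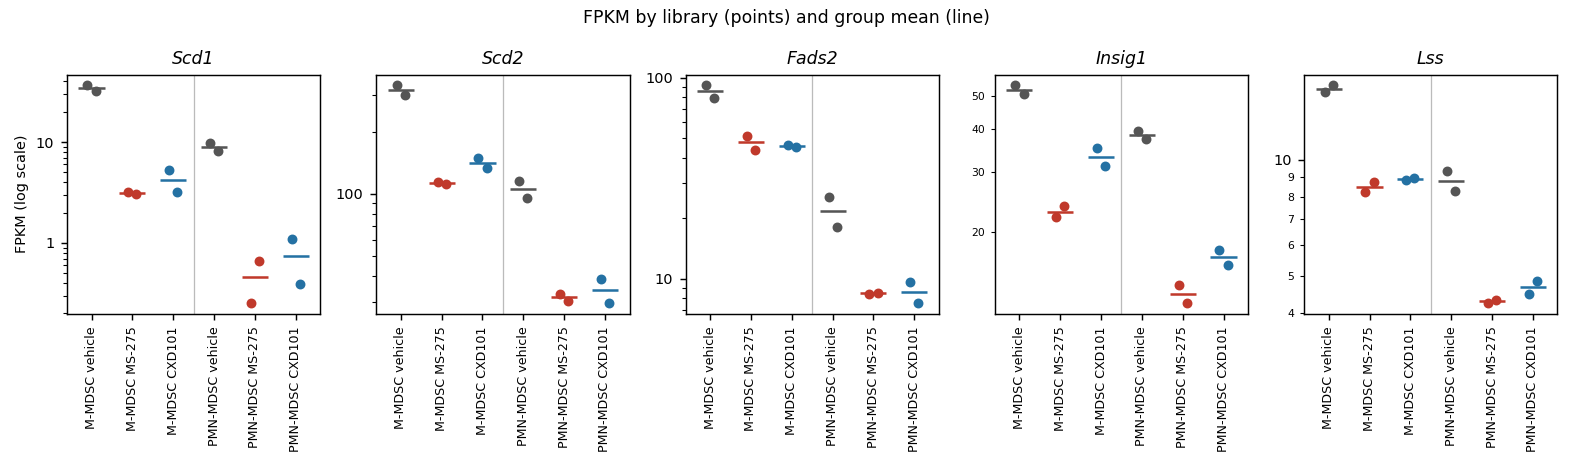
FPKM on a log axis of Scd1, Scd2, Fads2, Insig1 and Lss, the genes called in all 4 comparisons with vehicle, in each library (points) with the group mean (line), by cell type and treatment. In each gene and cell type the vehicle points (grey) lie above all MS-275 (red) and CXD101 (blue) points. Scd1 spans 36.4 to 0.254 FPKM, and in PMN-MDSCs it passed the expression filter only through its vehicle libraries.

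Of the 6 control and transport genes, Insig1 alone was called in all 4 comparisons. INSIG1 retains the SCAP and SREBP complex in the endoplasmic reticulum, and its gene is itself a known SREBP target. Insig1 was at 53.6 and 50.4 FPKM in vehicle M-MDSCs, 22.1 and 23.8 under MS-275, and 35.2 and 31.2 under CXD101. In PMN-MDSCs it was at 39.4 and 37.3, 14.01 and 12.4, and 17.7 and 16.05. The 3 groups of a cell type did not overlap, with MS-275 lowest in both. Insig1 fell by 1.15 and 0.64 on the log2 scale in M-MDSCs (SE 0.08, limma adjusted p = 2.3e-05 and 0.00122) and by 1.47 and 1.14 in PMN-MDSCs (SE 0.09, adjusted p = 1.94e-05 and 9.84e-05). Under CXD101 in M-MDSCs the call was lost with quantile normalization (-0.58) and without CXD101 replicate 2 (-0.55).

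Srebf1, which encodes SREBP-1, was at 50.2 and 50.6 FPKM in vehicle M-MDSCs, 31.5 and 30.8 under MS-275, and 37.3 and 37.9 under CXD101. PMN-MDSCs held 36.5 and 30.2, 22.02 and 25.3, and 23.01 and 22.5. Every treated library was below the vehicle libraries of its cell type, but only the change under MS-275 in M-MDSCs passed the fold limit (-0.68 ± 0.06, limma adjusted p = 6.77e-05), and with quantile normalization it too stayed under it (-0.55). The other 3 changes were -0.41 to -0.53 (adjusted p = 0.00226 to 0.008). Srebf2, encoding SREBP-2, the isoform tied most closely to cholesterol synthesis, was at 84.1 and 85.9 FPKM in vehicle M-MDSCs and 69.6 to 70.9 in the treated ones, and at 81.0004 to 95.1 in all PMN-MDSC libraries. It was called in no comparison. Stard4, a cytosolic sterol carrier, was at 28.7 and 28.1 FPKM in vehicle M-MDSCs, 27.2 and 28.996 under MS-275, and 29.1 and 29.9 under CXD101. In PMN-MDSCs it was at 18.4 and 16.8, 19.2 and 15.9, and 15.4 and 17.8. Treated and vehicle libraries overlapped, except that both M-MDSC libraries under CXD101 lay slightly above vehicle. Scap (12.02 to 18.1 FPKM over the 12 libraries), Insig2 (5.69 to 12.5) and Stard4 were called in none of the 4 comparisons with vehicle.

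In the mevalonate arm, 3 of 7 genes were lower under MS-275 and 0 under CXD101 in M-MDSCs. In PMN-MDSCs 3 and 4 were lower, with Fdps higher there. Of all genes tested, 7.32% and 3% were called lower in M-MDSCs, and 14.2% and 9.54% in PMN-MDSCs. Acat2, the cytosolic thiolase that joins acetyl-CoA units, was at 25.4 and 25.2 FPKM in vehicle M-MDSCs, 13.6 and 14.9 under MS-275, and 19.3 and 17.4 under CXD101. Its PMN-MDSC values were 12.7 and 9.87, 4.40 and 4.10, and 6.04 and 5.61. No groups overlapped within a cell type, and the changes were -0.79 (called) and -0.45 (not called) in M-MDSCs, and -1.22 and -0.84 (both called) in PMN-MDSCs, with limma adjusted p of 0.000169, 0.00701, 0.000236 and 0.00198. These values are uncertain, because 39.1% of the 50-base words in Acat2 transcripts also occur in Acat3 or Tcp1. Tcp1, a chaperonin subunit, had mean levels of 168 FPKM under vehicle and 141 under MS-275 in M-MDSCs, and of 78.6 and 48.6 in PMN-MDSCs. Acat3 had means of 26.4 FPKM under vehicle, 22.1 under MS-275 and 25.1 under CXD101 in M-MDSCs. In PMN-MDSCs its means were 13.4, 7.91 and 8.36 FPKM.

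Mvd, the decarboxylase that makes isopentenyl diphosphate, was at 90.7 and 91.9 FPKM in vehicle M-MDSCs, 49.1 and 45.4 under MS-275, and 62.7 and 60.1 under CXD101. In PMN-MDSCs the levels were 63.5 and 48.5, 38.2 and 39.5, and 35.5 and 34.96. All treated libraries were below vehicle, and the PMN-MDSC vehicle libraries differed from each other more than the treated ones did. The call was made under MS-275 in M-MDSCs (-0.94 ± 0.06, limma adjusted p = 1.98e-05) and under CXD101 in PMN-MDSCs (-0.64 ± 0.12, adjusted p = 0.00351), and the latter was lost without PMN-MDSC vehicle replicate 1 (-0.45). Pmvk, the phosphomevalonate kinase, went from 49.3 and 42.1 FPKM to 24.9 and 25.2 under MS-275 in M-MDSCs (-0.84 ± 0.08, adjusted p = 0.000116) and was at 30.1 and 30.5 under CXD101 (-0.57, not called). Its PMN-MDSC levels were 31.2 and 29.04 under vehicle, 20.6 and 19.2 under MS-275, and 21.3 and 21.4 under CXD101, changes of -0.58 and -0.48 that did not reach the fold limit of 0.585 on the log2 scale.

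Idi1, isopentenyl diphosphate isomerase, and Mvk, mevalonate kinase, were called only in PMN-MDSCs, although the difference between the cell types was not called for either. Idi1 was at 31.1 and 29.5 FPKM under vehicle, 15.4 and 14.8 under MS-275, and 17.5 and 16.5 under CXD101 in these cells (-0.96 and -0.80, SE 0.08, limma adjusted p = 6.82e-05 and 0.000254). Mvk was at 17.2 and 12.1, 7.55 and 7.69, and 8.37 and 9.45 (-0.84 and -0.64, SE 0.16, adjusted p = 0.00302 and 0.0131). Its vehicle libraries stood apart, and without vehicle replicate 1 the change under CXD101 was -0.40. In M-MDSCs, Idi1 was at 51.3 and 47.9 FPKM under vehicle, 33.998 and 32.8 under MS-275 (-0.56), and 40.4 and 38.5 under CXD101 (-0.32), both short of the fold limit, and Mvk was at 24.2 and 27.9, 19.3 and 19.2 (-0.42), and 23.3 and 21.6 (-0.20). Hmgcs1, whose promoter held the sterol element, was at 51.8 and 48.2 FPKM in vehicle M-MDSCs and 32.5 to 38.7 in the treated ones, and at 37.1 and 32.8 and 24.1 to 25.1 in PMN-MDSCs. Treated and vehicle libraries did not overlap, but the changes of -0.42 to -0.57 (adjusted p = 0.000466 to 0.00514) stayed under the fold limit. Idi1 shares 25.3% of its 50-base words with other transcripts.

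Fdps ran against the rest of the arm in PMN-MDSCs. It encodes farnesyl diphosphate synthase, whose product feeds both sterols and protein prenylation. Its PMN-MDSC levels were 181 and 151 FPKM under vehicle, 288 and 334 under MS-275, and 294 and 257 under CXD101. All 4 treated libraries were above both vehicle libraries, with changes of 0.90 ± 0.11 (limma adjusted p = 0.000407) and 0.73 ± 0.11 (adjusted p = 0.00159). In M-MDSCs Fdps was at 292 and 296 under vehicle, 253 in both MS-275 libraries, and 280 and 261 under CXD101, with changes of -0.21 and -0.12 that were not called. With every library at the same FPKM sum the PMN-MDSC changes were 0.55 and 0.38 and neither was called. Fdps shares 26.2% of its 50-base words with 8 other annotated genes, among them Gm43738, which overlaps it on the same strand, so its level is uncertain.

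**Figure D4:**
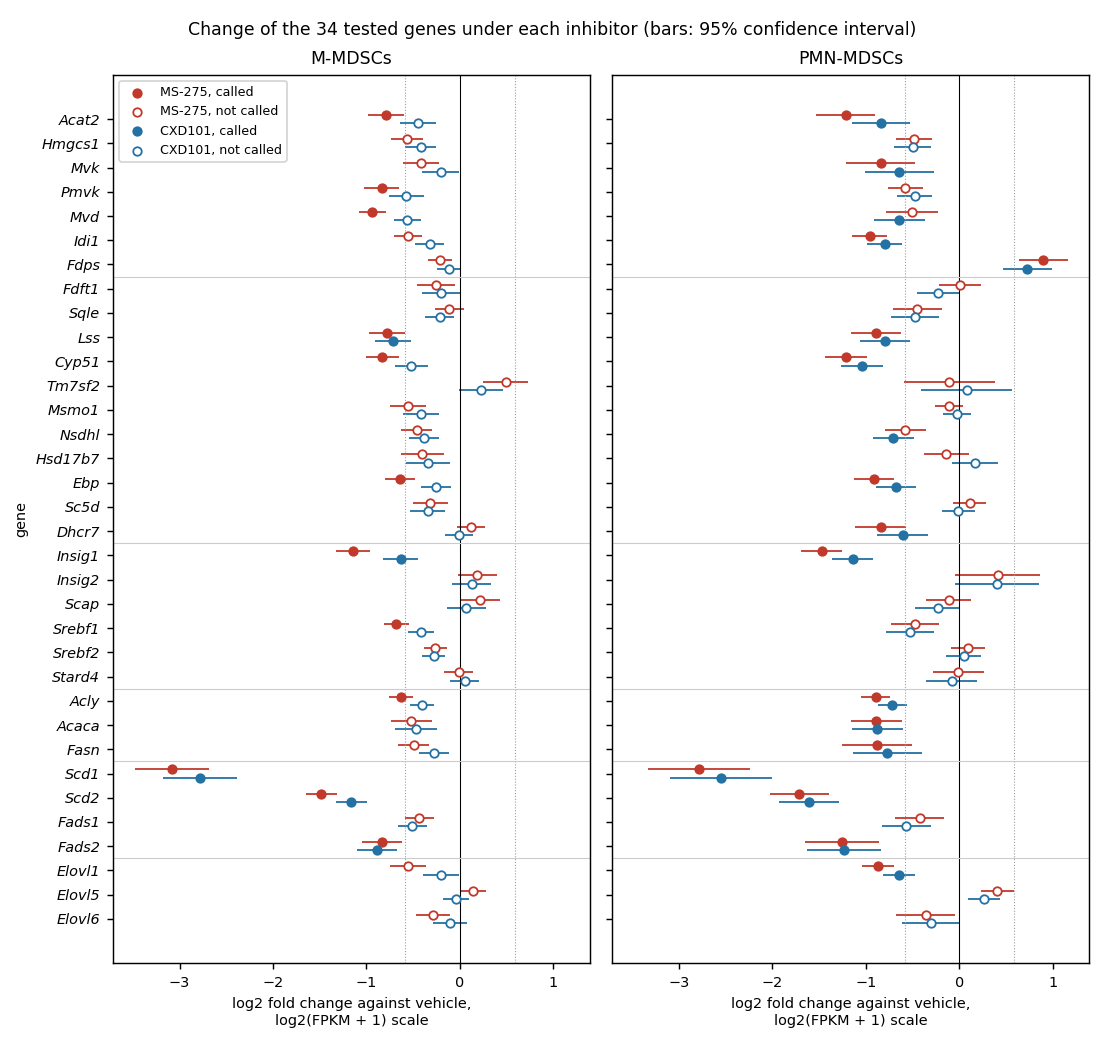
Log2 fold change against vehicle on the log2(FPKM + 1) scale with 95% confidence interval (bars) for the 34 tested genes by role, in M-MDSCs (left) and PMN-MDSCs (right), under MS-275 (red) and CXD101 (blue). Filled points were called, dotted lines mark a fold change of 1.5 either way, and Fdps is the only filled point right of 0.

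In the sterol arm, 3 of 11 genes were lower under MS-275 and 1 under CXD101 in M-MDSCs, and 4 and 5 in PMN-MDSCs, with 0 higher. The shares of all genes called lower in these 4 comparisons were 7.32%, 3%, 14.2% and 9.54%. Lss, lanosterol synthase, which closes the sterol ring system, was called in all 4. It was at 14.99 and 15.6 FPKM in vehicle M-MDSCs, 8.25 and 8.74 under MS-275, and 8.87 and 8.95 under CXD101. In PMN-MDSCs it was at 9.34 and 8.28, 4.25 and 4.33, and 4.49 and 4.84. The treated groups lay near each other and apart from vehicle, with changes of -0.78 and -0.72 in M-MDSCs (SE 0.08, limma adjusted p = 0.000169 and 0.000779) and -0.89 and -0.79 in PMN-MDSCs (SE 0.11, adjusted p = 0.000486 and 0.0012). Cyp51, which removes the 14-alpha-methyl group of lanosterol, was at 38.6 and 37.3 FPKM in vehicle M-MDSCs, 21.6 and 20.3 under MS-275, and 27.6 and 24.9 under CXD101. Its levels in PMN-MDSCs were 26.8 and 24.4, 10.96 and 9.98, and 11.6 and 12.4. Groups did not overlap within a cell type, and 3 of the 4 changes were called, -0.83 under MS-275 in M-MDSCs, and -1.21 and -1.03 in PMN-MDSCs (adjusted p = 8.14e-05, 5.24e-05 and 0.00017), while that under CXD101 in M-MDSCs was -0.52.

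Ebp, the sterol isomerase, was at 51.1 and 52.9 FPKM in vehicle M-MDSCs, 34.3 and 31.7 under MS-275, and 44.97 and 41.8 under CXD101. In PMN-MDSCs it was at 38.7 and 37.6, 18.4 and 21.2, and 24.4 and 22.5. MS-275 libraries were the lowest in both cell types. Changes of -0.64 (limma adjusted p = 0.000212) in M-MDSCs under MS-275, and of -0.91 and -0.68 (adjusted p = 0.000149 and 0.000882) in PMN-MDSCs were called. The M-MDSC call was lost with quantile normalization (-0.51) and without MS-275 replicate 2 (-0.58). Nsdhl, a C4 decarboxylating dehydrogenase, was called once, under CXD101 in PMN-MDSCs (17.6 and 16.2 to 10.1 and 9.80 FPKM, -0.71, adjusted p = 0.000852), and was at 11.4 and 10.6 under MS-275, a change of -0.58. In M-MDSCs it was at 25.2 and 24.3, 17.2 and 18.1, and 19.1 and 18.4 (-0.46 and -0.38).

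The other sterol genes showed no call against vehicle apart from Dhcr7, which is described with the cell types below. Msmo1, the C4-methylsterol oxidase, was at 62.04 and 60.9 FPKM in vehicle M-MDSCs and 40.96 to 49.97 in the treated ones (-0.56 and -0.42), and at 53.8 to 59.2 in all PMN-MDSC libraries. Sc5d, the C5 desaturase, was at 34.5 and 31.3 under vehicle and 24.2 to 27.2 in the treated libraries in M-MDSCs, and at 28.5 to 32.6 in PMN-MDSCs. Sqle, squalene epoxidase and a rate-setting step, was at 55.9 and 51.8 under vehicle, 49.5 and 49.8 under MS-275, and 47.6 and 44.8 under CXD101 in M-MDSCs, and at 35.4 and 30.6, 26.2 and 21.8, and 24.2 and 22.7 in PMN-MDSCs. Its changes were -0.11 to -0.47. Tm7sf2, a C14 sterol reductase, was at 5.81 and 6.998 FPKM in vehicle M-MDSCs and 9.18 and 9.55 under MS-275, a change of 0.49 (adjusted p = 0.0057 in limma) that did not reach the fold limit. It overlaps Vps51 on the same strand and shares 9.87% of its 50-base words with it. Hsd17b7 (5.96 to 10.1 FPKM) and Fdft1, squalene synthase (17.9 to 28.3), complete the arm. Fdft1 overlaps Ctsb, an abundant protease gene, on the other strand, and shares 26.5% of its 50-base words. The library kit was stranded, but whether strand was used in counting is not stated.

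The 3 genes that build palmitate from cytosolic citrate were lower in PMN-MDSCs under both inhibitors. Acly, ATP citrate lyase, which makes cytosolic acetyl-CoA, was at 152 and 144 FPKM under vehicle, 76.4 and 82.5 under MS-275, and 90.03 and 89.8 under CXD101 in these cells. Acaca, acetyl-CoA carboxylase, was at 9.65 and 9.44, 4.58 and 4.84, and 4.37 and 5.14. Fasn, fatty acid synthase, was at 32.2 and 23.1, 13.7 and 15.1, and 17.3 and 14.1. No treated library reached a vehicle library in any of the 3. Changes under MS-275 were -0.89, -0.89 and -0.88 (limma adjusted p = 3.87e-05, 0.000525 and 0.00265), and under CXD101 -0.71, -0.88 and -0.77 (adjusted p = 0.000169, 0.000795 and 0.00641). The Fasn call under CXD101 was lost without vehicle replicate 1 (-0.54), the higher of its vehicle values.

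In M-MDSCs only Acly under MS-275 was called among these 3. Acly was at 166 and 160 FPKM under vehicle, 105 in both MS-275 libraries, and 126 and 120 under CXD101, changes of -0.63 (limma adjusted p = 6.34e-05) and -0.40. With quantile normalization the former was -0.49 and not called. Fasn was at 73.95 and 73.8, 53.3 and 50.8, and 57.6 and 64.5, and Acaca at 19.7 and 19.03, 14.5 and 12.01, and 13.5 and 13.97. Their treated libraries were below vehicle, with log2 changes of -0.27 to -0.52. Acaca shares 30.4% of its 50-base words with other genes.

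Among the elongases, Elovl1, which extends saturated chains to very long lengths, was called in PMN-MDSCs under both inhibitors, at 109 and 101 FPKM under vehicle, 58.5 and 55.8 under MS-275, and 69.2 and 64.5 under CXD101 (-0.86 and -0.64, limma adjusted p = 6.72e-05 and 0.000407). In M-MDSCs it was at 99.8 and 104, 65.98 and 72.1, and 95.7 and 81.8, changes of -0.56 and -0.20. It overlaps Cdc20, a mitotic gene on the other strand that was at 69.9 and 71.8 FPKM in vehicle M-MDSCs and 32.5 and 34.3 under MS-275, and at 28.5 and 26.8 and then 15.3 and 14.2 in PMN-MDSCs. The 2 genes share 0.139% of the 50-base words of Elovl1. Elovl5, which acts on polyunsaturated chains, was at 41.9 and 39.7 FPKM in vehicle PMN-MDSCs and 48.8 to 57.1 in the treated ones (0.41 and 0.27, not called), and Elovl6, which elongates palmitate to stearate, was called in none of the 4. Elovl6 was at 17.9 and 17.5 FPKM under vehicle, 13.98 and 14.7 under MS-275, and 17.1 and 15.6 under CXD101 in M-MDSCs, and at 5.91 and 4.91, 3.82 and 4.14, and 4.49 and 3.88 in PMN-MDSCs.

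Counted over the 4 comparisons with vehicle, 5 of the 34 genes were called lower in all 4, 4 genes (Acat2, Cyp51, Ebp and Acly) in 3, 7 genes (Mvk, Mvd, Idi1, Dhcr7, Acaca, Fasn and Elovl1) in 2, and 3 genes (Pmvk, Nsdhl and Srebf1) in 1. Fdps was called higher in 2, and 14 genes were called in none. Apart from Fdps, none of the 34 was called higher in any of them. Of the 10648 genes tested in both cell types, 1.5% were called lower in all 4, 1.74% in 3, 7.35% in 2 and 8.63% in 1, against 14.7%, 11.8%, 20.6% and 8.82% of the 34. Comparisons within a cell type share their vehicle libraries, which raises the number of repeated calls in both. The 5 genes include Scd1, whose calls in PMN-MDSCs are a description, as given above.

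The cell types themselves differed under vehicle. PMN-MDSCs held lower levels than M-MDSCs for 17 of the 34 genes and a higher level for 0, where 16.8% of all 11662 genes tested were lower and 17.2% higher. All 4 testable desaturases were among the 17. Fads2 was lower by 1.94 on the log2 scale (85.5 against 21.8 FPKM on average), Scd1 by 1.82 (34.2 against 8.97), Scd2 by 1.58 (318 against 106) and Fads1 by 1.30 (37.5 against 14.7), with limma adjusted p of 1.38e-06, 4.66e-05, 1.32e-06 and 5.05e-07. Elovl6 (-1.55, adjusted p = 3.99e-07) and Fasn (-1.40, adjusted p = 7.14e-06) followed. The groups of 2 libraries did not overlap in any of these genes. The remaining 11 were Acat2, Mvk, Mvd, Idi1, Fdps, Sqle, Lss, Dhcr7, Srebf1, Stard4 and Acaca, with changes of -0.59 to -1.13. Mvd, Mvk and Srebf1 lost the call without PMN-MDSC vehicle replicate 2, and Srebf1 also without M-MDSC vehicle replicate 2. Not called were Acly, at 166 and 160 against 152 and 144 FPKM, Elovl1, Srebf2, Msmo1 and Scap, among others. The S100a8 and S100a9 shares given above differ between these groups as well. So do the proliferation markers, all 8 of which were lower in both vehicle PMN-MDSC libraries. The part of either in the difference was not tested. Summed over the 35 genes, the level was 2031 to 2104 FPKM (0.343% to 0.362% of all FPKM) in vehicle M-MDSCs, 1359 to 1377 under MS-275 and 1477 to 1564 under CXD101, and in PMN-MDSCs 1202 to 1363 (0.178% to 0.207%), 1029 to 1069 and 1003 to 1070.3.

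Whether the response to an inhibitor differed between the cell types was tested as the change in PMN-MDSCs minus the change in M-MDSCs. Fdps was higher by this test and Dhcr7 lower, for both inhibitors, and no other gene of the 34 was called for either. Of all genes, 8.65% were called higher and 9.48% lower for MS-275, and 7.31% and 6.59% for CXD101, against 1 of the 34 genes (2.94%) in each direction for each inhibitor. Dhcr7 encodes 7-dehydrocholesterol reductase, which carries out the last step to cholesterol in the Kandutsch-Russell route. It was at 23.7 and 23.4 FPKM in vehicle M-MDSCs, 25.4 and 25.8 under MS-275, and 23.7 and 23.1 under CXD101. In PMN-MDSCs it was at 10.9 and 9.60, 5.65 and 4.93, and 6.25 and 6.53. The 3 M-MDSC groups lay close together, and the treated PMN-MDSC libraries were all below their vehicle. Within PMN-MDSCs the changes were -0.84 ± 0.12 and -0.61 ± 0.12 (limma adjusted p = 0.000709 and 0.0045), and the differences between the cell types were -0.96 (95% interval -1.22 to -0.69, adjusted p = 0.000302) for MS-275 and -0.60 (-0.86 to -0.33, adjusted p = 0.00567) for CXD101. The latter lies just past the fold limit and was lost without M-MDSC CXD101 replicate 1 (-0.58), PMN-MDSC vehicle replicate 1 (-0.51) or PMN-MDSC CXD101 replicate 1 (-0.57). For Fdps, whose values are given above, the differences were 1.12 (0.81 to 1.42, adjusted p = 0.000273) for MS-275 and 0.84 (0.54 to 1.15, adjusted p = 0.00183) for CXD101. With equal FPKM sums they were 0.73 and 0.50, the latter no longer called, and 16 genes were then called lower for each inhibitor, where 25.6% of all genes were for MS-275 and 21% for CXD101.

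**Figure D5:**
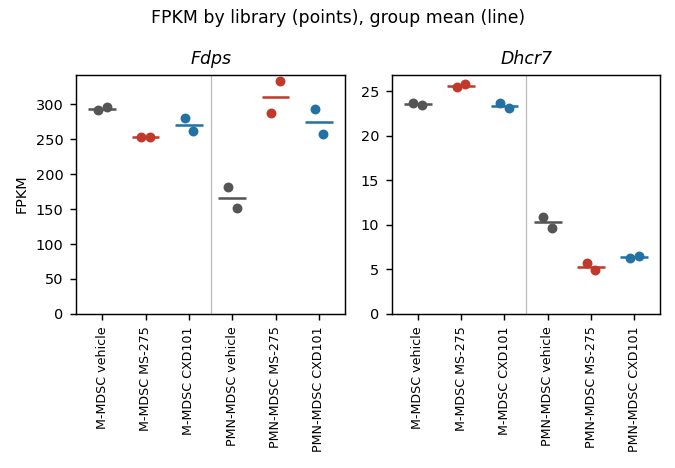
FPKM of Fdps (left) and Dhcr7 (right) in each library (points) with the group mean (line), by cell type and treatment, on axes that start at 0. Treated PMN-MDSC points lie above vehicle for Fdps and below vehicle for Dhcr7, while the 6 M-MDSC points stay within 253 to 296 FPKM and 23.1 to 25.8 FPKM.

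MS-275 and CXD101 were compared directly at the same dose and schedule. In M-MDSCs 0 of the 34 genes were called in either direction, where MS-275 had 3.22% of all genes called higher and 1.17% called lower. At an unadjusted p under 0.05 there were 15 (30.5% of all genes), and by limma adjusted p alone 9 were lower under MS-275, where 7.73% of all genes were. Insig1 had the largest such difference, -0.51 (95% interval -0.70 to -0.33, adjusted p = 0.00675), followed by Ebp at -0.38 (-0.55 to -0.22, adjusted p = 0.0122) and Mvd at -0.37 (-0.52 to -0.23, adjusted p = 0.00907). The others were Acat2, Cyp51, Srebf1, Acly, Scd2 and Elovl1. Scd1 differed by -0.30 (-0.70 to 0.09) and Lss by -0.06 (-0.25 to 0.13), intervals that include 0. In PMN-MDSCs 0 genes were called, where 0.465% of all genes were higher and 0.34% lower, 0 passed by limma adjusted p alone (0.492% of all genes were lower by it) and 7 had an unadjusted p under 0.05 (15.4% of all genes). The intervals there were as wide as -0.69 to -0.06 for Acat2 and -0.78 to 0.31 for Scd1. A missed threshold does not show that the inhibitors acted alike.

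A further 30 genes of the same pathways, from entry of acetyl-CoA to SREBP processing, liver X receptors and very long chain elongation, were counted in the same tests; 23 of them were tested in M-MDSCs and 21 in PMN-MDSCs. Under MS-275 in M-MDSCs 1 of the 23 was higher (4.35%) and 4 lower (17.4%). Of all genes, 10.1% were higher and 7.32% lower in that comparison. The higher one was Mlxipl, encoding the carbohydrate response factor ChREBP, at 0.138 and 0.288 FPKM under vehicle, 1.53 and 1.90 under MS-275, and 0.338 and 0.537 under CXD101. It passed the expression filter only through its MS-275 libraries, so it could only be tested because it was high there, and its call is a description. Acat1, Slc25a1, Me1 and Mid1ip1 were called lower, of which Me1 passed the filter only through its vehicle libraries, so its calls are read in the same way. Slc25a1, the mitochondrial citrate carrier, was at 64.7 and 67.7 FPKM under vehicle and 42.9 and 43.5 under MS-275 (-0.60, limma adjusted p = 0.000172). Under CXD101 in M-MDSCs 0 were higher and 2 lower, Acss2, an acetyl-CoA synthetase (-0.84), and Me1, the cytosolic malic enzyme (-0.64), where 5.14% of all genes were higher and 3% lower.

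In PMN-MDSCs MS-275 raised 2 of the 21 (Dhdds and Elovl7, 9.52%) and lowered 5 (Acat1, Erlin2, Hacd1, Hacd2 and Nr1h3, 23.8%), against 14.6% and 14.2% of all genes. CXD101 raised 1 (Elovl7, 4.76%) and lowered 2 (Acat1 and Hacd1, 9.52%), against 11.9% and 9.54% of all genes, so the share lowered was that of all genes. Acat1, the mitochondrial thiolase, was at 19.7 and 17.6 FPKM under vehicle, 7.59 and 8.02 under MS-275, and 11.8 and 9.87 under CXD101, with no overlap (-1.16 and -0.73, limma adjusted p = 0.000135 and 0.00169). Between the cell types under vehicle, 3 of the 23 were higher in PMN-MDSCs (13%, against 17.2% of all genes) and 6 lower (26.1%, against 16.8%). The difference in response was called higher in PMN-MDSCs for 3 and lower for 1 with MS-275 (Acss2, Mid1ip1 and Elovl7, then Hacd3), and for 3 and 1 with CXD101 (Acss2, Hacd4 and Elovl7, then Hacd1), so 13% and 4.35% of the 23 for each, beside the shares of all genes given with Fdps and Dhcr7. Between MS-275 and CXD101, Nr1h3, which encodes liver X receptor alpha, was lower under MS-275 in M-MDSCs, Mlxipl was called higher with the limit just given, and 0 were called in PMN-MDSCs.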

How the data were processed

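The authors deposited 1 table of FPKM values per library, 12 in all, aligned to mm10. Submitters' processing notes name TopHat2 2.1.1, Bowtie2 2.2.8, SAMtools 0.1.18 and Cuffdiff 2.2.1 without their roles; annotation, strand setting and scaling between libraries are not given in the sources used here. Libraries were stranded mRNA libraries read as 101 single-end bases. FPKM sums differed between libraries, so the deposited values did not share 1 total. Genes with FPKM of at least 1 in at least 2 fitted libraries were tested with limma 3.58.1 (R 4.3.3, trend) on log2(FPKM + 1), with models of 6 M-MDSC, 6 PMN-MDSC or all 12 libraries, and Benjamini-Hochberg adjustment over all genes tested. A gene was called at adjusted p under 0.05 and fold change above 1.5. The fit was tested on simulated data. Effective depth was estimated from the steps between FPKM values under 0.3 in genes with 1 transcript of at least 1000 bases, on GENCODE vM21 lengths. Values of every library are given for each of the 35 genes called in any of the 9 comparisons, and ranges for most others of them; further pathway genes are given as counts with a few examples. The genes and lists were chosen with earlier results of these data known, and the limits of the calls are those of the study's methods. Alternatives were another pseudocount, no filter, other scalings, a replicate block and leaving out each library. 1 further gene of the pathways is not reported here.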

Additional observations from a re-analysis of the deposited data

Results flagged for a closer look

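For 2 of the 34 genes the response to each inhibitor differed between M-MDSCs and PMN-MDSCs by the test of that difference. This was 1 gene higher and 1 lower with each inhibitor, 2.94% each way. Of all genes, 8.65% were called higher and 9.48% lower for MS-275, and 7.31% and 6.59% for CXD101. The shares of the 34 were thus below those of all genes. For Fdps, the change in PMN-MDSCs minus that in M-MDSCs was 1.12 on the log2 scale for MS-275 and 0.84 for CXD101, with higher levels in all 4 treated PMN-MDSC libraries than in their vehicle libraries. For Dhcr7 the differences were -0.96 and -0.60, with lower levels in all 4 treated PMN-MDSC libraries. With CXD101, the Fdps call was lost with equal FPKM sums, and the Dhcr7 call on leaving out certain single libraries. Fdps also shares 26.2% of its 50-base words with other genes. Groups of 2 libraries were too small for a search for outlying samples.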

How the results depend on the processing

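No called value changed direction under any alternative, and the pseudocount of 0.1, no filter, median-of-ratios scaling, quantile normalization and, for the comparisons within a cell type, all 12 libraries in one model moved no count by over 1.5 times. Same-numbered libraries shared little of their deviations (correlations -0.139 to 0.088), which cannot show whether they came from the same mice. With a replicate block the counts lower against vehicle were 12, 5, 15 and 17 as without it, and no other count changed. The scalings below were chosen after seeing the data. With equal FPKM sums, genes higher in PMN-MDSCs were 0 under MS-275 and 0 under CXD101, genes lower under MS-275 were 23, and for the difference in response 16 were lower with MS-275, and 0 higher and 16 lower with CXD101. Without S100a8 and S100a9, dividing by the share kept, 3 and 3 genes were higher in PMN-MDSCs, 6 were lower under CXD101, and for the difference in response 5 were higher with MS-275, and 6 higher and 0 lower with CXD101. Both move the median of all genes, as given above. For the difference in response, dividing by the share kept moved that median to 0.26 with each inhibitor. The share of all genes called there is not given. With equal sums of the other genes after removing S100a8 and S100a9, no count moved by over 1.5 times. Leaving out 1 library (the lone library is then assumed to vary like the other groups) gave, under MS-275 in M-MDSCs, 0 to 1 higher (1 without vehicle replicate 2) and 12 to 14 lower, under CXD101 4 to 7 lower, and against CXD101 0 to 2 lower (2 without CXD101 replicate 2). In PMN-MDSCs it gave 1 to 2 higher (2 without MS-275 replicate 2) and 15 to 19 lower under MS-275, and 12 to 19 lower under CXD101. Between the cell types under vehicle it gave 14 to 21 lower. For the difference in response it gave, with MS-275, 1 to 2 higher (2 without PMN-MDSC vehicle replicate 1) and 1 to 6 lower (6 without PMN-MDSC vehicle replicate 2), and with CXD101 1 to 2 higher (2 without M-MDSC vehicle replicate 2) and 0 to 4 lower (0 without M-MDSC CXD101 replicate 1 or PMN-MDSC vehicle replicate 1, 3 without M-MDSC CXD101 replicate 2, 4 without PMN-MDSC vehicle replicate 2). The cause of these moves was not tested, and the shares of all genes called with a library left out are not given. Duplicate libraries, and a depth that left 8 to 41 reads of Scd1 in the treated PMN-MDSC libraries, limit what could be seen in genes near 1 FPKM.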
